A study of Caenorhabditis elegans with 6 samples.

Results

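The 6 genes described here, hsp-6, hsp-60, dnj-10, phb-1, phb-2 and tomm-20, encode mitochondrial chaperones, the prohibitins of the inner membrane and a receptor of the protein import machinery of the nematode Caenorhabditis elegans. They were taken by gene name from a deposited table of 5792 genes, and all 6 were found in it. The series compared WT with TGQ animals, in a project on inherited high copy number of mitochondrial DNA, the mitochondrial unfolded protein response and aging. Polyadenylated RNA of whole animals was measured at L4, the last larval stage, in 3 WT and 3 TGQ samples, and both groups were kept at 20 °C on OP50 bacteria from hatching. In the labels the strain of the WT samples is SJ4100, a known line in which the hsp-6 promoter drives GFP, so these controls are a reporter strain and not the plain laboratory wild type. The labels name the other strain only as TGQ, and say neither how it was made nor whether it carries the reporter too.

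Nearly all mitochondrial proteins are made in the cytosol and pass through translocases of the outer and inner membrane. The matrix HSP70 pulls them in and, with a J-domain partner and a nucleotide exchange factor, helps them fold, and some then enter the barrel of the HSP60 chaperonin and its HSP10 lid. Prohibitins form ring-shaped scaffolds in the inner membrane. When proteins misfold in mitochondria, the mitochondrial unfolded protein response raises transcription of nuclear genes for such chaperones and proteases, and hsp-6 and hsp-60 are its usual reporter genes in worms.

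All 6 genes were higher in TGQ than in WT, by 1.39-fold to 1.58-fold, and in each of them the lowest TGQ sample exceeded the highest WT sample. On the log2(value + 1) scale the changes ran from 0.47 to 0.66 with a median of 0.51. Each passed limma with Benjamini-Hochberg adjustment over 5540 tested genes at an adjusted p under 0.05. Of all genes tested, 90.2% were called in either direction, 45.6% were called higher and 44% lay higher with no overlap between groups, and the median change of all was -0.22. The table holds genes that had already passed the authors' own test on these samples, the largest adjusted p in the authors' deposited table being 0.0499. A call is therefore the usual state of a gene here, and the calls are not independent evidence. Except for dnj-10, the rises were below the median of the genes called higher, which was 0.63. Of the genes called higher, 69.1% rose more than hsp-6, 84.4% more than hsp-60 and 45.0% more than dnj-10.

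The values are a deposited expression signal whose unit is not named. Per-sample sums over the table were 327792 to 349508 in WT and 282762 to 293887 in TGQ, and sequencing depth is unknown. Because the unit is not named, the level of a gene is compared here between samples and not with the level of another gene. The animals were measured whole, so fewer cells of a type and less RNA per cell cannot be told apart. Oocyte and sperm markers moved with the groups. All 17 listed oocyte and eggshell markers were in the table and 16 were called lower in TGQ (44.6% of all genes tested were called lower). The summed value of the 17 was 1963 to 2602 in WT and 608 to 805 in TGQ. Of 16 sperm markers 12 were in the table and all 12 were called lower, with sums of 1407 to 1675 in WT and 494 to 586 in TGQ. No marker in the table was at 0 in all samples. Of 31 markers of intestine, muscle, neurons and hypodermis, 8 were in the table, with 7 called higher and 1 lower (45.6% and 44.6% of all genes tested). Their sums were 460 to 563 in WT and 648 to 657 in TGQ. The lower one, cpr-1, was the only intestine marker in the table (234 to 338 in WT, 183 to 192 in TGQ). The 2 hypodermis markers had sums of 77.6 to 112 in WT and 270 to 293 in TGQ. Sums were 66.3 to 112 and 115 to 143 for 2 muscle markers, and 30.0 to 37.2 and 51.9 to 53.6 for 3 neuron markers. The part of these shifts in the rise of the mitochondrial genes was not tested.

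The matrix chaperone genes come first in the order of roles. The gene hsp-6 encodes the mitochondrial HSP70, on the minus strand of chromosome V at 4824124 to 4826760 (all coordinates are of WBcel235; the sources used here name no build for the authors' alignment). Its signal was 274, 207 and 231 in WT replicates 1 to 3 and 353, 341 and 333 in TGQ replicates 1 to 3. The lowest TGQ sample lay 59.6 above the highest WT sample, and the WT samples spread more widely, with a coefficient of variation of 14.1% against 2.98%. The mean went from 237 ± 33.5 (SD, n = 3) to 343 ± 10.2, a log2 change of 0.54 (95% interval 0.29 to 0.78, limma adjusted p = 0.00171).

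The chaperonin gene hsp-60, on the plus strand of chromosome III at 1619742 to 1625803, encodes the subunit of the folding barrel. Its signal was 351, 273 and 311 in WT and 414, 443 and 434 in TGQ. WT replicate 1 was again the highest WT sample and WT replicate 2 the lowest, and the groups did not overlap. The mean went from 311 ± 39 (SD, n = 3) to 430 ± 14.4, a log2 change of 0.47 (95% interval 0.24 to 0.70, limma adjusted p = 0.00246).

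The gene dnj-10, on the plus strand of chromosome III at 8631165 to 8633565, encodes a mitochondrial J-domain protein, the class of co-chaperone that stimulates HSP70. Its signal was 31.1, 23.5 and 27.4 in WT and 42.8, 43.4 and 44.1 in TGQ. The WT samples stood in the same order as for hsp-6 and hsp-60, while the TGQ samples differed by a coefficient of variation of 1.51%. The mean went from 27.3 ± 3.81 (SD, n = 3) to 43.4 ± 0.655, a log2 change of 0.66 (95% interval 0.38 to 0.94, limma adjusted p = 0.00125).

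The prohibitins PHB-1 and PHB-2 assemble together in the inner membrane. The gene phb-1 lies on chromosome I at 2071352 to 2072547 and phb-2 on chromosome II at 6251411 to 6252780, both on the plus strand. The signal of phb-1 was 279, 269 and 287 in WT and 368, 405 and 397 in TGQ. That of phb-2 was 219, 210 and 212 in WT and 292, 311 and 313 in TGQ. In both genes the WT samples lay close together and TGQ replicate 1 was the lowest TGQ sample, still above all WT samples. The mean of phb-1 went from 278 ± 8.85 (SD, n = 3) to 390 ± 19.4, a log2 change of 0.48 (95% interval 0.30 to 0.67, limma adjusted p = 0.000668). The mean of phb-2 went from 213 ± 4.73 to 305 ± 11.8, a log2 change of 0.51 (95% interval 0.33 to 0.69, limma adjusted p = 0.000450). The ratio of phb-1 to phb-2 was 1.28, 1.28 and 1.35 in WT and 1.26, 1.30 and 1.27 in TGQ, and the groups overlapped. The log2 ratio differed by -0.03 between TGQ and WT (95% interval -0.11 to 0.05, exact two-sided permutation p = 0.5), the narrowest interval but 1 among the 15 pairs of the 6 genes.

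The import receptor gene tomm-20 encodes a subunit of the outer membrane complex that binds targeting sequences, and lies on the minus strand of chromosome V at 12342314 to 12343469. Its signal was 73.0, 82.4 and 82.9 in WT and 112, 114 and 113 in TGQ. Here WT replicate 1 was the lowest WT sample, the reverse of the chaperone genes, and the TGQ samples had a coefficient of variation of 0.897%. The mean went from 79.4 ± 5.62 (SD, n = 3) to 113 ± 1.01, a log2 change of 0.50 (95% interval 0.30 to 0.71, limma adjusted p = 0.00110).

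**Figure D1:**
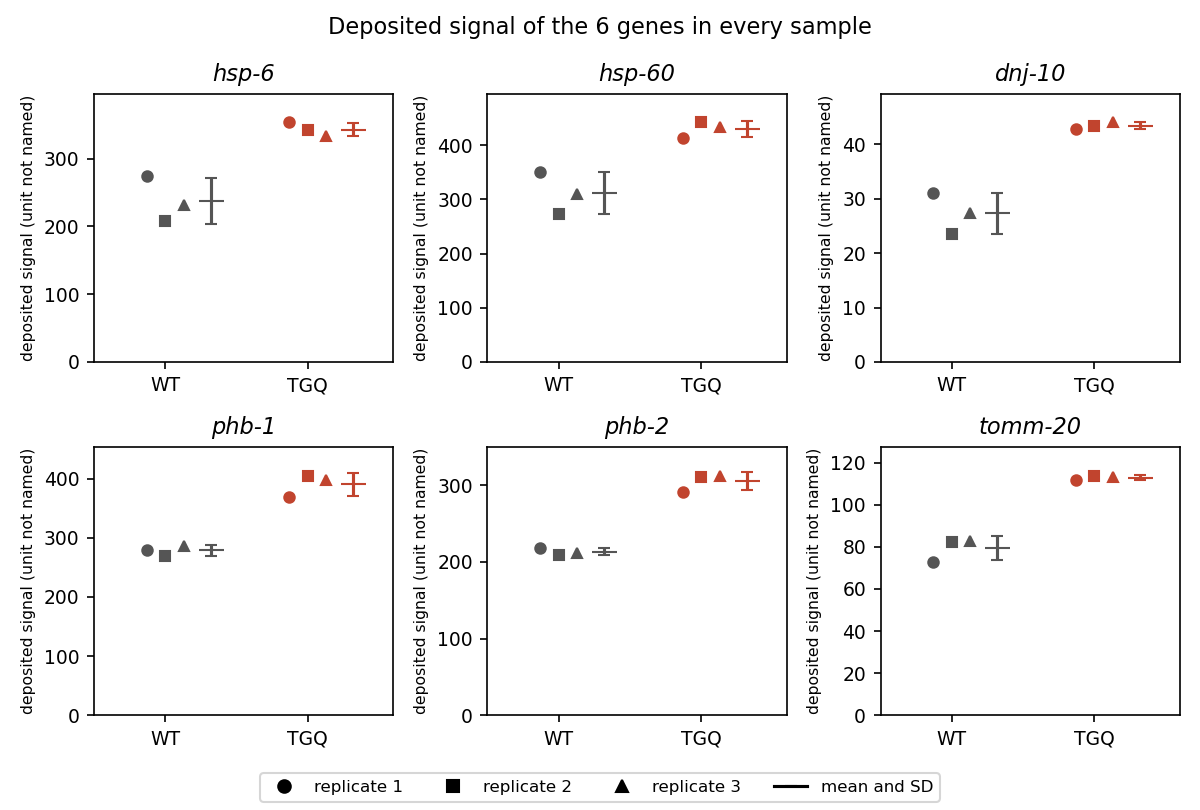
Deposited signal (linear axis from 0, unit not named) of the 6 genes in each WT (grey) and TGQ (red) sample, with marker shape giving the replicate number and bars the mean and SD of 3 samples. Every TGQ point lies above every WT point, and relative to its mean WT spreads more widely for hsp-6, hsp-60 and dnj-10 (coefficients of variation of 14.1%, 12.5% and 13.9%) than for phb-1 and phb-2 (3.18% and 2.22%).

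In the authors' deposited table the folds of the 6 genes were smaller, from 1.28 for phb-1 and tomm-20 to 1.46 for dnj-10, with 1.32 for hsp-6. Over 3716 genes with both group means of at least 5, the deposited log2 fold lay a median of 0.13 below the log2 ratio of the means (a shift of -0.13). What is called the authors' scaling below is this inferred shift applied to all TGQ values, and not a normalization described by the authors. By the adjusted p in the authors' deposited table, dnj-10 ranked at 1688 of 5792 with 5.34e-06 and hsp-6 at 2355 with 0.000133. The import receptor gene tomm-20 ranked at 5017 with an adjusted p of 0.0253 in the authors' deposited table, near the end of the selected genes.

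The 6 changes were compared with each other through the ratio of 2 genes within each sample, which a factor applied to a whole sample does not change beyond the effect of the added 1. Among the 15 pairs, 13 overlapped between the groups and 2 did not. The ratio of hsp-60 to dnj-10 was 11.3, 11.6 and 11.3 in WT and 9.69, 10.2 and 9.84 in TGQ. Its log2 value was lower in TGQ by a difference of -0.18 (95% interval -0.25 to -0.12, exact two-sided permutation p = 0.1, 0.75 adjusted over the 15 pairs). The ratio of hsp-6 to dnj-10 was 8.79, 8.82 and 8.45 in WT and 8.26, 7.86 and 7.56 in TGQ, a log2 difference of -0.12 (95% interval -0.24 to -0.0045, same exact p). A p of 0.1 is the smallest that 3 against 3 samples allow, so no pair could pass. The ratio of hsp-6 to hsp-60 differed by 0.06 (95% interval -0.08 to 0.21, exact permutation p = 0.4). Intervals of pairs that join a chaperone gene with a prohibitin gene or tomm-20 were wide. Their lowest bound was -0.47 (hsp-60 to tomm-20) and their highest 0.61 (dnj-10 to tomm-20). Small differences between these genes could therefore not be told apart from none. Quantile normalization is not such a factor and turned both differences from dnj-10, its log2 change then being 0.73 against 0.89 for hsp-60 and 0.95 for hsp-6. Without WT replicate 1, 10 of the 15 ratios no longer overlapped, and with a pseudocount of 5, 14 of 15 overlapped.

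The difference between WT replicates 1 and 2 moved with transcript length. The longest annotated transcripts of hsp-6, hsp-60 and dnj-10 have 2460, 2121 and 1697 bases, and their log2 values in WT replicate 2 differed from those in WT replicate 1 by -0.40, -0.36 and -0.39. The transcripts of phb-2, phb-1 and tomm-20 have 1134, 1078 and 736 bases, and the same differences were -0.06, -0.05 and 0.17. Over all tested genes the median of this difference was -0.10 for transcripts of up to 1000 bases, -0.20 from there to 1500, -0.29 to 2000, -0.36 to 3000, -0.45 to 4000 and -0.52 above 4000. Spearman's rho between length and this difference was -0.39 across 5537 genes, which share the same 2 libraries and are not replicates. The difference of WT replicate 3 from WT replicate 1 had a rho of only -0.10 with length, and that of TGQ replicate 2 from TGQ replicate 1 a rho of 0.12. WT replicates 1 and 2 thus differed in a length-dependent way in the medians of all genes. The 3 longer of the 6 genes also differed more than the 3 shorter ones, though not in the order of their lengths. Single genes depart from the median of their length. Neither the source of the trend nor its part in the WT spread of the 6 genes was tested.

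**Figure D2:**
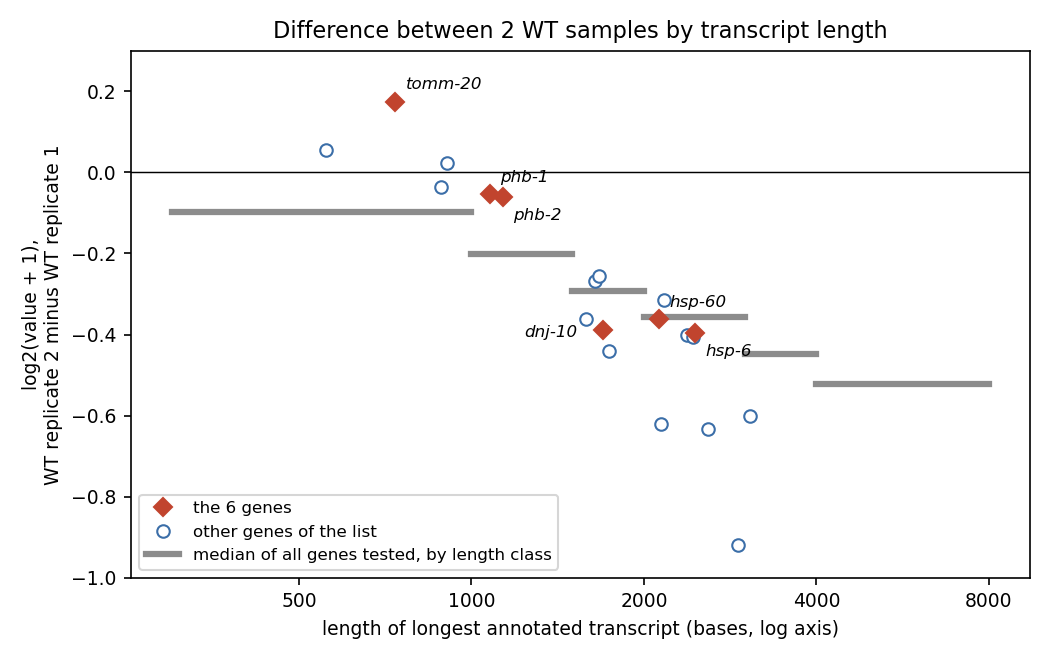
Difference of log2(value + 1) between WT replicates 2 and 1 (vertical axis) against the length of the longest annotated transcript in bases (log axis), for the 6 genes (red diamonds), the other listed genes of mitochondrial quality control and import (open circles) and the median of all genes tested in each length class (grey bars, the outer classes drawn to 300 and 8000 bases). The 3 longer genes lie between -0.36 and -0.40, and the 3 shorter ones between -0.06 and 0.17.

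The change between the groups also moved with length in this selected table, with a rho of 0.44 across the same genes. Tested genes of the length class of hsp-6 and hsp-60 (over 2000 and up to 3000 bases, 814 genes) had 0.49 as their median log2 change, and 68.6% were called higher. The class of dnj-10 had a median of 0.45, with 55.2% called higher. In the class of phb-1 and phb-2 (over 1000 and up to 1500 bases, 1445 genes) the median was -0.34 and 36.7% were called higher, and in that of tomm-20 (up to 1000 bases, 1681 genes) the median was -0.62 and 20.5% were called higher. The changes of hsp-6 and hsp-60 were near the median of their length class, and those of dnj-10, phb-1, phb-2 and tomm-20 lay above theirs. Because the table holds genes selected for a change, a class median depends on the shares of its genes that rose and fell. The 6 changes themselves differed little, from 0.47 to 0.66. When the trend with length was removed from each sample, a processing chosen after the data were seen, all 6 genes were still called higher, but their order changed, as it also did after quantile normalization. The log2 change was then 0.19 for hsp-6 (limma adjusted p = 0.0326), 0.20 for hsp-60, 0.51 for dnj-10, 0.78 for phb-2, 0.79 for phb-1 and 0.97 for tomm-20. Removing the length trend also takes out the part of the change between groups that moves with length. It lowers the change of long genes and raises that of short ones by construction, so the new order is no separate result.

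**Figure D3:**
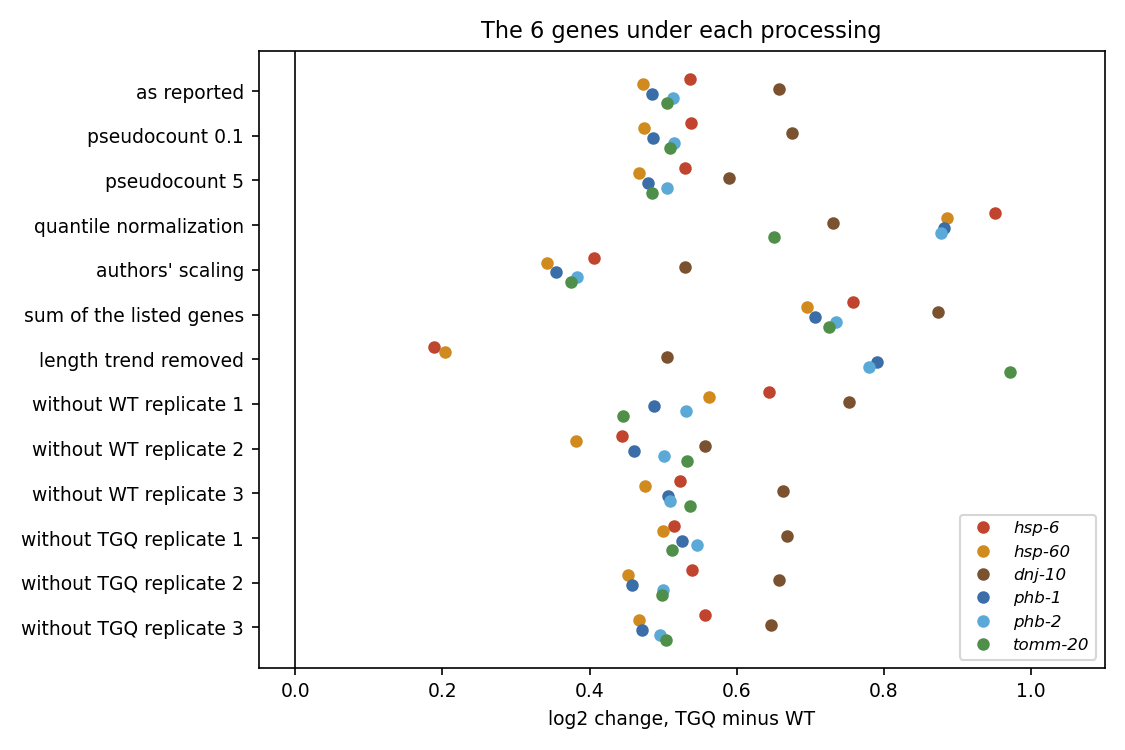
Log2 change (TGQ minus WT) of the 6 genes, 1 colour per gene, as reported and under 12 other processings or left-out samples; settings that leave the change as reported are not drawn. All points lie above 0, between 0.19 and 0.97. Removing the length trend lowers the change of long genes and raises that of short ones by construction. It sets hsp-6 and hsp-60 below the shorter phb-1, phb-2 and tomm-20.

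The 6 genes belong to a wider machinery, for which a list of 41 genes was set out by role. Of these, 20 were in the table, the 6 genes included. Of the other 35 listed genes, 14 were in the table, and 12 of the 14 were called higher and 1 lower, with a median log2 change of 0.54 (median of all genes tested -0.22, 45.6% called higher and 44.6% called lower). Of the 20 genes, with the 6 genes included, 14 have transcripts over 1500 bases. In the length classes over 1500 and up to 4000 bases, 55.2% to 83.5% of tested genes were called higher, with class medians of 0.45 to 0.54. The median of 0.54 of the 14 other genes was thus not set apart from those of these longer classes. Of these 14, Y22D7AL.10, C34C12.8 and timm-17B.1 are shorter, with 558, 885 and 906 bases. Their log2 changes were 0.53, 0.55 and 0.42, above the median of -0.62 of the class of up to 1000 bases, where 20.5% were called higher. The remaining listed genes are not analysed here.

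All 6 listed mitochondrial chaperone genes were in the table and called higher (45.6% of all genes tested were called higher). The HSP10 gene Y22D7AL.10, which encodes the chaperonin lid, was at 492, 511 and 530 in WT and 694, 759 and 767 in TGQ, 1.45-fold higher (limma adjusted p = 0.000349). It lies on the minus strand next to hsp-60 on the plus strand, head to head, with 812 bases between the annotated genes. The ratio of hsp-60 to Y22D7AL.10 was 0.713, 0.534 and 0.586 in WT and 0.597, 0.584 and 0.566 in TGQ, so the groups overlapped and the log2 ratio differed by -0.06 (95% interval -0.41 to 0.29, exact permutation p = 0.8). The transcript of Y22D7AL.10 is short, with 558 bases, and its WT samples did not follow the order seen for hsp-60. The GrpE gene C34C12.8, whose product is the nucleotide exchange factor of mitochondrial HSP70, was at 72.9, 71.0 and 72.3 in WT and 101, 105 and 112 in TGQ, 1.46-fold higher. The ratio of hsp-6 to C34C12.8 overlapped between groups, with a log2 difference of -0.01 (95% interval -0.36 to 0.33, exact permutation p = 1). The gene hsp-75, related to the mitochondrial HSP90 TRAP1 of mammals, was 1.6-fold higher.

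Of 9 listed protease genes 6 were in the table, 5 called higher and 1 lower (45.6% and 44.6% of all genes tested). The inner membrane AAA protease genes spg-7, ymel-1 and ppgn-1 were 1.94-fold, 1.49-fold and 1.40-fold higher, the matrix Lon protease gene lonp-1 1.41-fold and mppa-1, for a subunit of the peptidase that removes targeting sequences, 1.45-fold. With the length trend removed, 3 of these 5 calls were lost, those of lonp-1 (log2 change 0.05, limma adjusted p = 0.584), ymel-1 (0.21, adjusted p = 0.0869) and ppgn-1 (0.15, adjusted p = 0.121). That processing lowers the change of long genes such as these by construction. The gene spg-7 was at 49.0, 25.4 and 34.8 in WT and 71.1, 71.7 and 64.8 in TGQ, with a coefficient of variation of 32.5% in WT, the highest of the list. Its log2 change was 0.96, and 0.53 with the length trend removed. The gene K07A3.3, annotated in the table as a homolog of the unfoldase ClpX, fell by 0.87 on the log2 scale (limma adjusted p = 0.000619), from 8.76, 7.10 and 6.83 in WT to 4.24, 3.53 and 3.3 in TGQ.

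Among 7 inner membrane scaffold genes, 4 were in the table. Beside both prohibitin genes these were the paralogs immt-1 and immt-2, for the MIC60 subunit of the complex that shapes cristae junctions. The gene immt-1 was at 45.2, 33.8 and 39.9 in WT and 65.5, 64 and 64.3 in TGQ, 1.62-fold higher (limma adjusted p = 0.000804). The gene immt-2 was at 43.6, 34.9 and 38 in WT and 34.5, 31.1 and 29.7 in TGQ, a log2 change of -0.28 that did not pass (limma adjusted p = 0.0544). It passed with the authors' scaling (adjusted p = 0.0123), after quantile normalization (adjusted p = 0.037), without WT replicate 2 (adjusted p = 0.0309), with the replicate number as a block (adjusted p = 0.0339) and with the length trend removed (log2 change -0.56, adjusted p = 0.000302), with a range over all alternatives of 0.000302 to 0.604. Removing the length trend lowers the change of a long gene such as immt-2 by construction.

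Of 19 listed import genes 4 were in the table and all 4 were called higher (45.6% of all genes tested were called higher). Beside tomm-20 these were genes for subunits of the inner membrane machinery, timm-17B.1 of the channel (1.34-fold), tin-44, which tethers HSP70 to it (1.5-fold), and scpl-4, annotated as a translocase subunit (1.5-fold). The gene timm-17B.1 was the most even within WT, at 149, 151 and 149, against 194, 204 and 204 in TGQ. Over the list, 13 of 14 genes with transcripts over 1500 bases had WT replicate 1 highest and WT replicate 2 lowest of the WT samples, against 2 of 6 shorter ones. Among all genes tested, these shares were 67.2% and 31.7%.

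**Figure D4:**
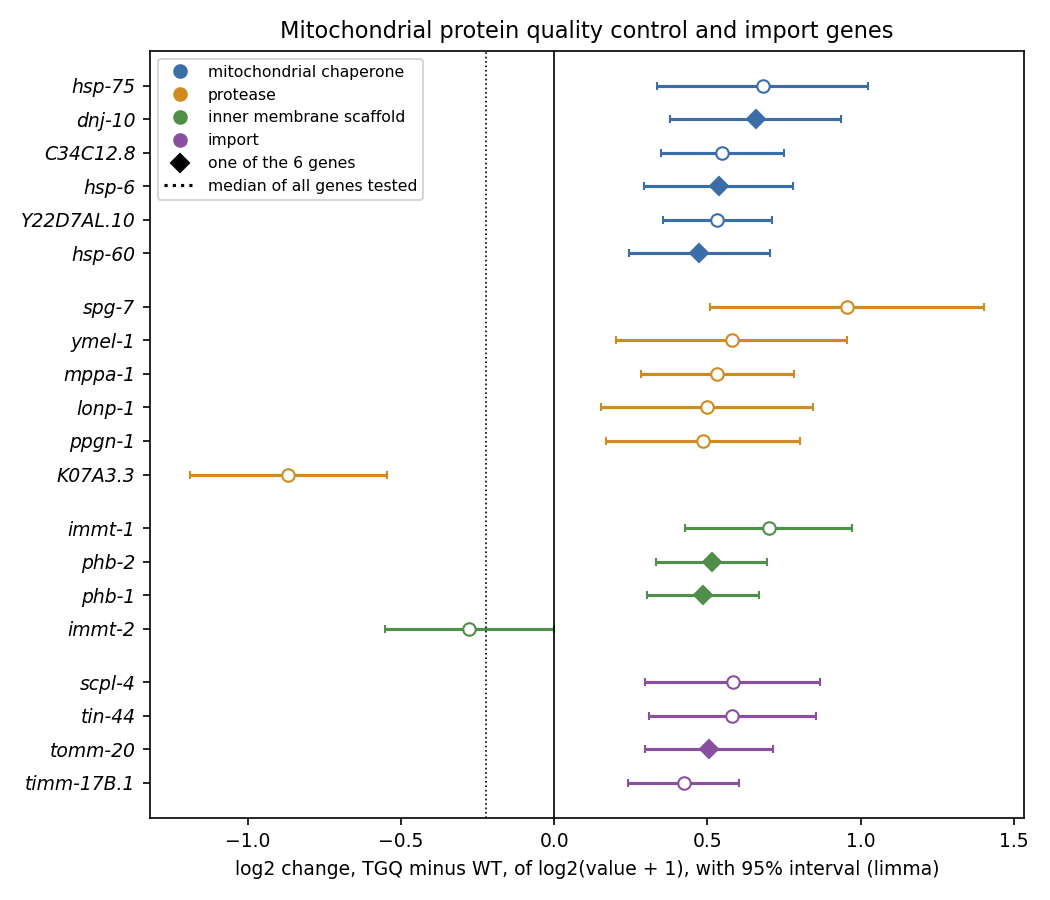
Log2 change (TGQ minus WT) of log2(value + 1) with 95% limma interval for the 20 listed genes in the table, coloured by role, with filled diamonds for the 6 genes and a dotted line at the median of all genes tested (-0.22). Intervals of 18 genes lie above 0, that of K07A3.3 lies below 0, and that of immt-2 ends just under 0.

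Chaperone genes of other compartments were set beside the mitochondrial ones. Of 13 listed chaperone genes of the endoplasmic reticulum 7 were in the table, 6 called higher and 1 lower, with a median log2 change of 0.55, against 0.54 for the 6 mitochondrial chaperone genes. Of 23 cytosolic chaperone genes 3 were in the table and 1 was called higher. Among all genes tested, 45.6% were called higher. In the length classes that hold the 7 genes of the endoplasmic reticulum, the shares were 55.2% (over 1500 and up to 2000 bases) and 68.6% (over 2000 and up to 3000). The HSP70 genes differed among themselves. The gene hsp-3, for an HSP70 of the endoplasmic reticulum, was at 511, 484 and 525 in WT and 742, 751 and 755 in TGQ, 1.48-fold higher (limma adjusted p = 0.000182). Its paralog hsp-4 was at 306, 283 and 297 in WT and 274, 235 and 230 in TGQ, and was called lower (log2 change -0.27, limma adjusted p = 0.0239). The cytosolic hsp-1 was at 1359, 1296 and 1376 in WT and 1265, 1251 and 1230 in TGQ, a log2 change of -0.11 that did not pass (limma adjusted p = 0.163).

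The ratio of hsp-6 to hsp-1 was 0.201, 0.160 and 0.168 in WT and 0.279, 0.273 and 0.271 in TGQ, with no overlap. Its log2 value was higher in TGQ by 0.64 (95% interval 0.36 to 0.92, exact two-sided permutation p = 0.1, 0.3 adjusted over 6 such pairs chosen after values were seen). That of hsp-6 to hsp-4 was higher by 0.80 (95% interval 0.52 to 1.08, same p). The ratio of hsp-6 to hsp-3 overlapped, with a difference of -0.03 (95% interval -0.32 to 0.26, exact permutation p = 1). The ratio of hsp-60 to cct-3, a subunit gene of the cytosolic chaperonin that was 1.45-fold higher, also overlapped, with a difference of -0.07 (95% interval -0.45 to 0.31, exact permutation p = 0.7). The rise of hsp-6 was thus not set apart from that of hsp-3, and that of hsp-60 not from that of cct-3.

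**Figure D5:**
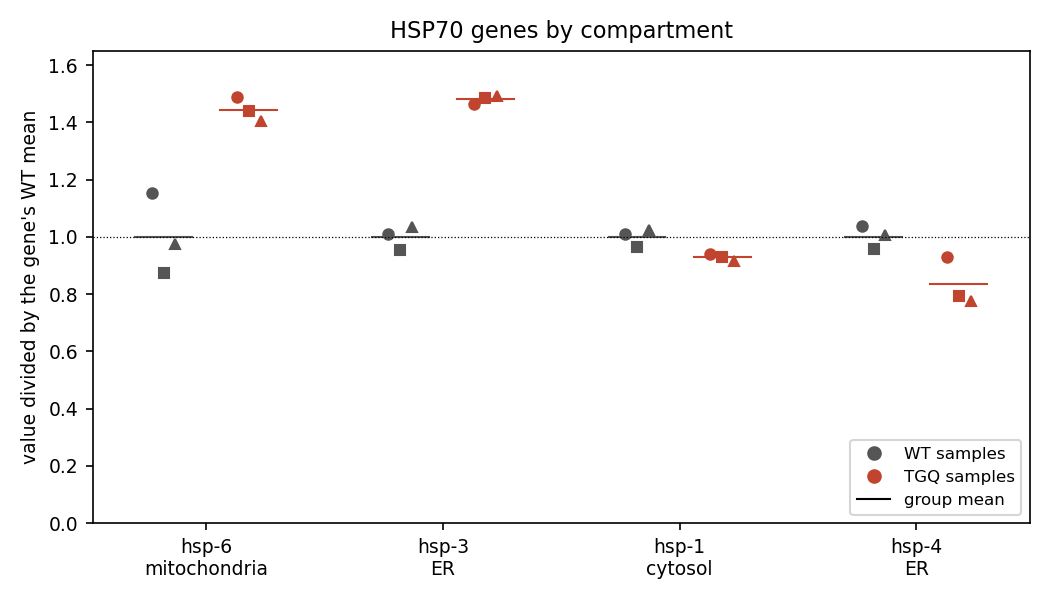
Values of 4 HSP70 genes in each sample divided by the gene's WT mean (linear axis from 0), WT in grey and TGQ in red, with marker shape for the replicate and a line for the group mean. The TGQ samples of hsp-6 and hsp-3 lie above all WT samples of the same gene, and those of hsp-1 and hsp-4 below.

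The genes whose values ran most like the mean standardised profile of the 6 genes over the 6 samples, among 3148 other tested genes with a mean value of at least 10, were kat-1, R07E3.1, F52C9.3, mrps-34 and idh-1. Their Pearson correlations with it were 0.999, 0.999, 0.999, 0.998 and 0.998. The gene kat-1, annotated as a mitochondrial acetyl-CoA acetyltransferase, was at 261, 232 and 251 in WT and 374, 386 and 385 in TGQ. The gene mrps-34, for a protein of the mitochondrial ribosome, was 1.39-fold higher, and idh-1, for an NADP-dependent isocitrate dehydrogenase, 1.67-fold. The correlations rest mostly on the step between the groups, and 662 of the 3148 genes (21%) had a correlation above 0.95. The correlations of the 6 genes themselves with this profile, which is formed from their own values, ran from 0.925 to 0.991.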

How the data were processed

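RNA with poly(A) tails was sequenced from 6 samples, grouped here by their titles. TopHat2 and RSEM are named, without roles, per the submitters' processing notes, and the sources used here name no build and no test. The authors deposited a normalized signal per gene and sample (the file headers give no unit), group means, a fold (TGQ over WT) with its log2, and p-values with adjusted p-values. The signal is not a count, so the count model foreseen for counts was not used. Values were tested as log2(value + 1) with limma 3.58.1 (R 4.3.3), after dropping genes that did not reach 1 in 3 samples or more. Group was the single term, and eBayes used its trend and robust options. The fit was also run on simulated data in which few genes changed. Most genes of this table are called, so that run does not show how well the adjusted p-values hold here. Fold changes are on this scale and understate those of low genes. Pairs of genes were compared by exact two-sided permutation tests (SciPy 1.17.1), and intervals of their ratios use the pooled SD. Transcript lengths are of the WBcel235 annotation, which held 5789 of the 5792 gene IDs. Nothing in the labels ties replicates to separate cultures, so the p-values cover only the spread between these samples, and that spread may be technical. The 6 genes and all lists were chosen with earlier results of these data known. Named genes are the 6, those of the pathway list and the 5 most alike in profile, and the chaperone genes of other compartments were named after their values were seen.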

Additional observations from a re-analysis of the deposited data

How the results depend on the processing

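All 6 genes were called higher under each of the 15 alternatives, which gave 90 values in all, none reversed and none lost. Over the same alternatives, 33.7% to 46.4% of all genes tested were called higher. The 90 values come from the same 6 samples and from genes already selected by the authors' test, so they are not independent evidence. With the authors' scaling, here the inferred shift of -0.13 applied to TGQ, the log2 changes ran from 0.34 to 0.53 (median of all genes -0.35). With each sample divided by the sum of its listed genes they ran from 0.69 to 0.87 (median -0.004). After quantile normalization they ran from 0.65 to 0.95 (median -0.10), where hsp-6 stood at 0.95 in place of 0.54. With the length trend removed they ran from 0.19 to 0.97, where long genes drop and short ones rise by construction. The cause of the other moves was not tested. Leaving out single samples gave 0.44 to 0.64 for hsp-6, 0.38 to 0.56 for hsp-60, 0.56 to 0.75 for dnj-10, 0.46 to 0.53 for phb-1, 0.50 to 0.55 for phb-2 and 0.45 to 0.54 for tomm-20, with adjusted p of at most 0.0125 by limma. The other listed genes called lower numbered 2 in place of 1, with immt-2 added, under quantile normalization, the authors' scaling, the removed length trend and the replicate block, and 1 to 2 when single samples were left out, with 2 without WT replicate 2. Those called higher numbered 9 with the length trend removed, where lonp-1, ymel-1 and ppgn-1 were lost, and 12 otherwise. The number of gene pairs whose ratios did not overlap was 2, with 1 at a pseudocount of 5 and 2 to 10 when single samples were left out. With the replicate number as a block the 6 genes stayed called higher, 6 of 6. Same-numbered samples had deviations correlated at 0.25, -0.01 and 0.16, so the numbers were not taken as pairs. Depth is unknown, and 3 samples a group limit every interval.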
